A study of Mus musculus with 14 samples.

Results

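The steroid hormone receptors were followed in RNA sequencing libraries of mouse brainstem: the oestrogen receptors Esr1 and Esr2, the progesterone receptor Pgr, the glucocorticoid receptor Nr3c1 and the mineralocorticoid receptor Nr3c2. They were chosen by name, with earlier results of these data known, as 5 genes of the 55421 mouse genes in the count table. All 5 passed the filter on low counts in every comparison.

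All animals were mice of the genotype TH-Cre;Slc6a2-eGFP/Rpl10a on a C57Bl/6 background, 2 to 3 months old at infusion. In such mice the Th promoter drives Cre recombinase, and Slc6a2 (noradrenaline transporter) regulatory DNA drives a ribosomal protein tagged with green fluorescent protein, so the tagged ribosomes of noradrenergic cells can be pulled from a homogenate with the RNA they carry. The locus coeruleus, the main noradrenergic nucleus of the brain, was infused in animals B, C, L and M (4 mice) with P364S mutant tau of human origin, and in animals H, I and K (3 mice) with EYFP, a yellow fluorescent protein, as the control. By the labels, Tau animals B and L and EYFP animal I were male. Tau animals C and M and EYFP animals H and K were labelled female. Every mouse contributed both the immunoprecipitate (IP) and the total brainstem homogenate before it (pre-IP), so that there were 14 libraries: 3 EYFP pre-IP, 4 Tau pre-IP, 3 EYFP IP and 4 Tau IP. The pre-IP homogenate holds every cell type of the dissected tissue, and Th and Slc6a2 are also active in noradrenergic groups outside the locus coeruleus. RNA that adheres to the beads without a tagged ribosome was not analysed here.

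Steroid receptors of this family are transcription factors that bind a lipophilic hormone inside the cell, in a complex with the chaperone HSP90 and its partners. The bound receptor acts on genes as a dimer at short palindromic elements and recruits coactivators or corepressors. Glucocorticoid and mineralocorticoid receptors both bind corticosteroids, the mineralocorticoid receptor with the higher affinity, and the locus coeruleus is a part of the brain's stress response. Oestrogen and progesterone receptors bind the ovarian hormones.

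Library totals ran from 41843489 to 65664551 counts. A floor of 3 counts was 0.0457 to 0.0717 CPM, that is counts per 1000000 counts of the library, and floors and counting intervals cover counting error only. The RNA integrity number (RIN) was 7.7 to 9, except for a value of 4.2 in EYFP IP I. The tau construct, which checks the treatment labels, had 3527 to 47177 counts in Tau libraries, 2 to 18 in those of EYFP animals H and I, and 408 and 398 in those of EYFP animal K. Animal M is labelled female, yet its libraries held 674 and 1153 counts of Y-linked genes. The 12 noradrenergic markers, among them Dbh, Th and Slc6a2, were all above the floor in every library. Their summed level was 409 to 481 CPM in the 7 pre-IP libraries and 564 to 642 CPM in EYFP IP, against 7168 CPM in Tau IP B, 4113 CPM in C, 3538 CPM in L and 1070 CPM in M. IP over pre-IP, this list was thus 1.33-fold to 1.40-fold in the 3 EYFP animals and 2.42-fold to 16.6-fold in the 4 Tau animals. The enrichment of these markers therefore differed between the groups of every Tau against EYFP comparison in IP. Summed pituitary markers also stood apart by animal: 5857 CPM in Tau pre-IP L, 851 CPM in Tau pre-IP M and 766 CPM in EYFP pre-IP K, against 15.3 to 103 CPM in the other pre-IP libraries.

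Levels of different genes can be compared only per length, so CPM per kilobase of exon was used for that. In pre-IP, Nr3c1 had the highest level per length of the receptors, 4.34 CPM per kilobase ± 1.17 (SD, n = 7 animals), at percentile 74.0 of 28375 detected genes. Nr3c2 had 2.68 CPM per kilobase ± 0.211 and Pgr 2.40 CPM per kilobase ± 0.289. Esr1, at 0.231 CPM per kilobase ± 0.0599, and Esr2, at 0.117 CPM per kilobase ± 0.0440, were much lower, at percentiles 40.1 and 32.4. Nr3c1 was above Nr3c2 in 7 of 7 pre-IP and 7 of 7 IP libraries, and Pgr was above Esr1 in all of them. Nr3c2 and Pgr did not keep an order: Nr3c2 was the higher in 5 of 7 pre-IP and in 2 of 7 IP libraries. Esr1 was above Esr2 in 7 of 7 pre-IP libraries and in 6 of 7 IP libraries, EYFP IP K being the other. In IP the levels per length were 7.14 CPM per kilobase ± 1.91 for Nr3c1, 2.19 CPM per kilobase ± 0.606 for Nr3c2 and 2.17 CPM per kilobase ± 0.427 for Pgr.

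**Figure D1:**
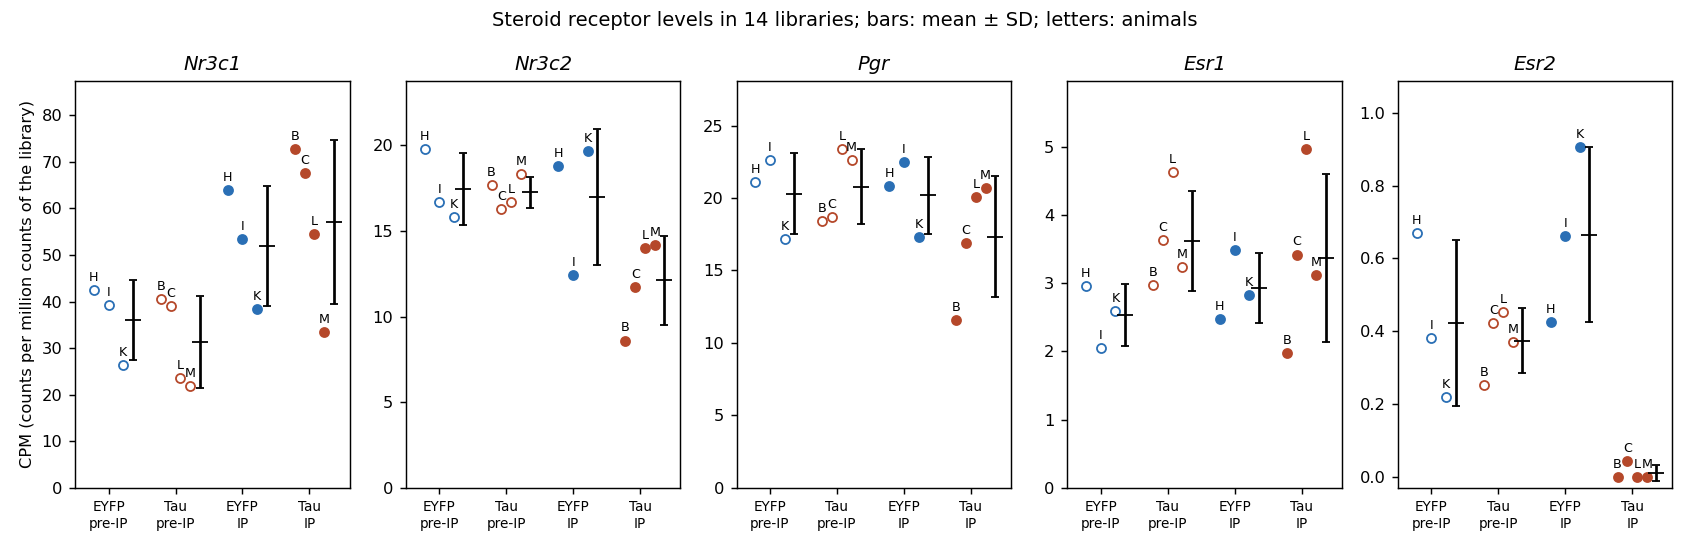
Levels of the 5 receptors in each of the 14 libraries, in CPM on an axis of its own per gene, with the animals' letters and the group mean ± SD. Nr3c1 sits higher in IP than in pre-IP, while Esr2 is at 0 or 0.0427 CPM in the 4 Tau IP libraries and at 0.219 CPM or more in every other library.

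Nr3c1 (ENSMUSG00000024431.15, chromosome 18, 39410545 to 39519421 on the minus strand, GRCm38) encodes the glucocorticoid receptor, which most brain cells express. In pre-IP it had 42.5, 39.2 and 26.3 CPM in EYFP animals H, I and K, and 40.6, 39.1, 23.6 and 21.9 CPM in Tau animals B, C, L and M. In IP it had 63.9, 53.4 and 38.4 CPM in the same EYFP animals and 72.8, 67.6, 54.6 and 33.4 CPM in the Tau animals. The IP level lay above the pre-IP level of the same animal in 7 of 7 animals, although the fractions overlapped between animals. Such a direction in all 7 animals was shared by 10.8% of 18792 genes.

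IP was compared with pre-IP over the 14 libraries, with treatment as a further term, to see which receptor RNAs the precipitated ribosomes held more or less of. Nr3c1 was the only receptor that passed. It rose by 0.79 on the log2 scale (SE 0.21, adjusted p 0.00866 in edgeR's quasi-likelihood test with Benjamini-Hochberg adjustment over all genes). In that comparison 31.0% of the 18792 genes were called with 16.3% higher and 14.7% lower, so 1 of 5 receptors is no larger a share than the background. The log2 fold change was 0.53 (SE 0.21, edgeR adjusted p 0.169) in the EYFP animals alone and 0.95 (SE 0.29, edgeR adjusted p 0.0399) in the Tau animals alone, where 10.4% of genes were called as higher. The difference between these values was tested as an interaction term and was 0.45 (SE 0.41, edgeR adjusted p 0.894). That fit does not pair the fractions of an animal. With the animal as block, which pairs them, the interaction was 0.43 (SE 0.21, edgeR unadjusted p 0.059, adjusted p 0.594). In animals B, C, L and M the noradrenergic list was 16.6-, 9.76-, 8.48- and 2.42-fold as high in IP as in pre-IP, and the log2 ratio of Nr3c1 was 1.09, 0.86, 1.24 and 0.58. In H, I and K that list was 1.40-, 1.36- and 1.33-fold as high, and the log2 ratio of Nr3c1 was 0.65, 0.40 and 0.49. The part of the noradrenergic enrichment in the level of Nr3c1 was not tested. In bulk RNA, more cells of a type and more RNA per cell cannot be told apart.

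Nr3c1 also followed the library numbers that the labels give, which run up to 11 for animals B, C, H and I and from 17 for K, L and M. In pre-IP the lower-numbered libraries held 39.1 to 42.5 CPM and the higher-numbered ones 21.9 to 26.3 CPM, without overlap. Of 19197 genes, 15.2% lay higher in the lower range in this way. In IP the ranges overlapped, with 53.4 to 72.8 CPM against 33.4 to 54.6 CPM. What the numbers stand for is not given in the sources used here. Both fractions of an animal fall in 1 range, and the log2 ratio of IP over pre-IP was positive in each animal of both: 0.40 to 1.09 in the first and 0.49 to 1.24 in the second. With the range as a covariate, the rise of Nr3c1 in IP was 0.78 (edgeR adjusted p 0.000190).

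**Figure D2:**
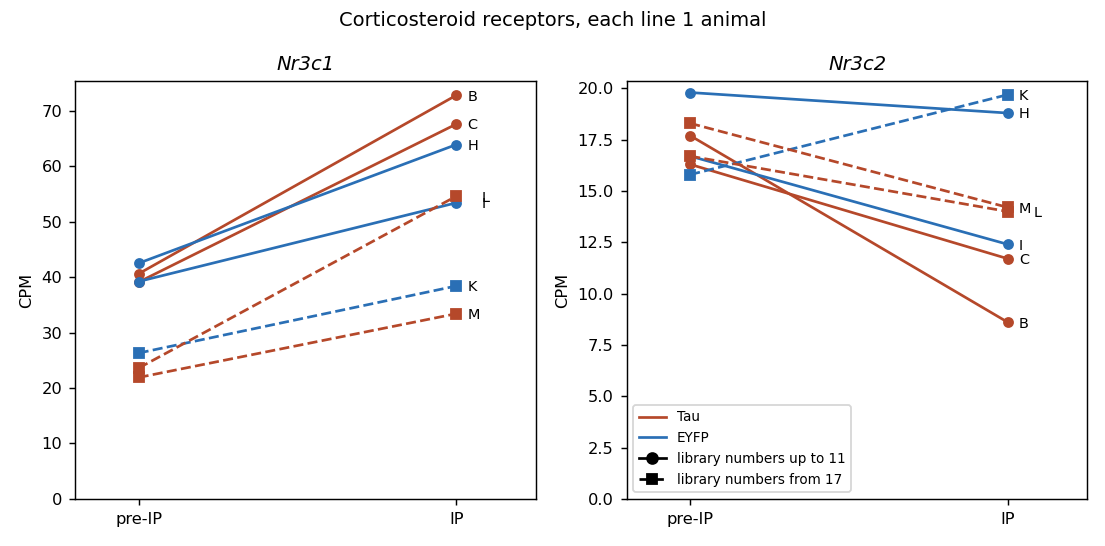
CPM of Nr3c1 and Nr3c2 in pre-IP and IP, each line joining the fractions of 1 animal; colours give the infusion, and dashed lines with squares the library numbers from 17. All 7 lines of Nr3c1 go up, and 6 of 7 lines of Nr3c2 go down, that of EYFP animal K going up.

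Nr3c2 (ENSMUSG00000031618.13, chromosome 8, 76899442 to 77245012 on the plus strand) encodes the mineralocorticoid receptor. Relative to its mean it had the narrowest spread of the receptors in pre-IP, a coefficient of variation of 7.87%, with 19.8, 16.7 and 15.8 CPM in EYFP animals H, I and K and 17.7, 16.3, 16.7 and 18.3 CPM in Tau animals B, C, L and M. In IP it had 18.8, 12.4 and 19.7 CPM in the EYFP animals and 8.60, 11.7, 14 and 14.2 CPM in the Tau animals. The IP level was below the pre-IP level in 6 of 7 animals, lowest in B, and the fractions overlapped. The log2 fold change in IP was -0.26 (SE 0.13, edgeR adjusted p 0.149), which did not pass. The 2 corticosteroid receptors therefore had differences of opposite sign between the fractions, of which that of Nr3c1 passed. Nr3c2 shares 247 exon bases with Gm10649 on the opposite strand, a gene with 13 to 55 counts per library. Whether counting used strand is not given in the sources used here, so reads of the shared stretch cannot be assigned.

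Pgr (ENSMUSG00000031870.16, chromosome 9, 8899833 to 8968611 on the plus strand) encodes the progesterone receptor. In pre-IP it had 21.1, 22.6 and 17.2 CPM in EYFP animals H, I and K and 18.4, 18.7, 23.4 and 22.6 CPM in Tau animals B, C, L and M. In IP it had 20.8, 22.5 and 17.3 CPM in the EYFP animals and 11.6, 16.9, 20.1 and 20.7 CPM in the Tau animals. Each EYFP animal had nearly the same level in both fractions, and Tau IP B held the lowest value of all. The log2 fold change in IP was -0.11 (SE 0.12, edgeR adjusted p 0.523).

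Esr1 (ENSMUSG00000019768.16, chromosome 10, 4611593 to 5005614 on the plus strand) encodes oestrogen receptor alpha. In pre-IP it had 2.96, 2.05 and 2.59 CPM in EYFP animals H, I and K and 2.97, 3.63, 4.63 and 3.24 CPM in Tau animals B, C, L and M. In IP it had 2.47, 3.48 and 2.82 CPM in the EYFP animals and 1.98, 3.42, 4.97 and 3.12 CPM in the Tau animals. Animal L had the highest Esr1 level in both fractions, and its pituitary list was also the highest in both, at 5857 CPM in pre-IP and 4467 CPM in IP. In pre-IP, animals M and K had the next highest lists, at 851 and 766 CPM. Their Esr1 levels of 3.24 and 2.59 CPM lay below the 3.63 CPM of animal C, whose list was 52.9 CPM. The IP log2 fold change was 0.07 (SE 0.19, edgeR adjusted p 0.825), with no common direction among the animals. The largest log2 ratio of IP over pre-IP, 0.71, was that of animal I, whose IP library had the RIN of 4.2.

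Esr2 (ENSMUSG00000021055.14, chromosome 12, 76120419 to 76177259 on the minus strand) encodes oestrogen receptor beta and was the least abundant receptor. In pre-IP it had 28, 19 and 12 counts in EYFP animals H, I and K, which are 0.669, 0.381 and 0.219 CPM. In Tau pre-IP it had 12, 22, 26 and 23 counts in animals B, C, L and M, which are 0.251, 0.423, 0.452 and 0.371 CPM. The pre-IP groups overlapped, and every library was above the floor. In EYFP IP it had 28, 32 and 55 counts, or 0.426, 0.662 and 0.906 CPM. In Tau IP it had 0 counts in B, L and M and 2 counts in C, the latter 0.0427 CPM and under the floor of that library.

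**Figure D3:**
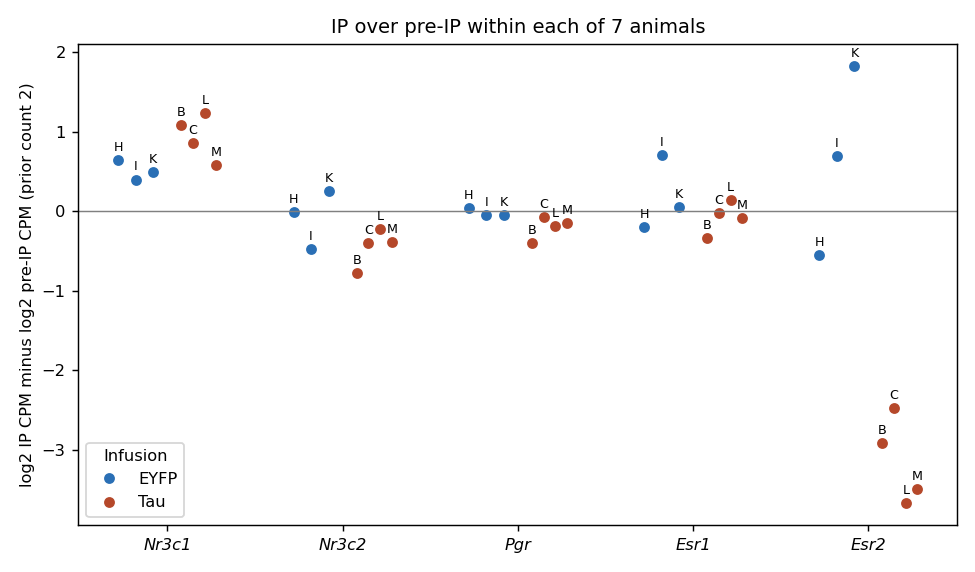
Log2 ratio of CPM in IP over CPM in pre-IP for each receptor within each of the 7 animals (scaled by the trimmed mean of M-values, prior count 2), with EYFP animals in blue and Tau animals in red. Nr3c1 is above 0 in every animal, and Esr2 lies between -3.67 and -2.47 in the 4 Tau animals and between -0.55 and 1.83 in the 3 EYFP animals.

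Tau IP was then compared with EYFP IP, to ask whether tau in the locus coeruleus changed the receptor RNAs on the tagged ribosomes. Esr2 was the only receptor whose groups did not overlap, and lay lower in Tau IP. Of the 19472 genes tested, 15.6% had groups that did not overlap, and 9.22% did not overlap with Tau IP lower. Summed over libraries, Esr2 had 115 counts in EYFP IP and 2 in Tau IP, a ratio of 67.8 per count of depth (95% exact interval 18.3 to 566). Most low counts in these libraries were even, 78.3% of those from 1 to 10, as a read pair counted as 2 would give. With the counts divided by 2 the interval was 11.6 to 2700. Both intervals pool the libraries of a group and cover counting error only, not the spread between animals. The fitted log2 fold change of -5.68 (SE 1.18) depends on the prior count and had an unadjusted p of 0.000803 and an edgeR adjusted p of 0.318, rank 33 by p. Without animal C, the only Tau animal with Esr2 counts in IP, the fitted value was -8.16, and the interaction term tested further on was -7.96. edgeR called 0 of the 19472 genes (0%), 2336 had an unadjusted p under 0.05, and DESeq2's Wald test called 411 (2.11%). For Esr2 that Wald test gave -5.95 with an unadjusted p of 7.7e-05 but no adjusted p. Esr2 thus counts neither as called nor as not called by it. edgeR called 128 genes without animal M and 113 without a filter on low counts. Esr2 was not among them, with adjusted p of 0.113 and 0.0662. Over the other settings tried, the edgeR adjusted p of Esr2 was 0.0662 to 0.636.

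Within the Tau animals, Esr2 had 83 counts in Tau pre-IP against 2 in Tau IP, a ratio of 39.0 (95% exact interval 10.5 to 327), whereas in the EYFP animals the IP held 115 counts against 59, a ratio of IP over pre-IP of 1.63 (1.18 to 2.28). With the counts divided by 2 the intervals were 6.53 to 1557 and 1.04 to 2.67. These intervals compare the libraries and not the treatments. The log2 ratio of IP over pre-IP was -0.55 in EYFP animal H, 0.70 in I and 1.83 in K. IP against pre-IP in the Tau animals alone gave -4.89 on the log2 scale for Esr2 (SE 0.98, edgeR adjusted p 0.00998), in a comparison that called 20.7% of genes, and 10.3% as lower. In the EYFP animals alone it was 0.68 (SE 0.54, edgeR adjusted p 0.511), where 6.38% of genes were called. Over both treatments together it was -1.64 (SE 0.87, edgeR adjusted p 0.168), whereas DESeq2's Wald test, which called 35.3% of genes there, gave -2.15 (adjusted p 0.0229).

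The interaction of treatment and fraction, which tests whether these log2 fold changes differed, was -5.55 for Esr2 (SE 1.15, edgeR adjusted p 0.242, rank 16 of 20495 genes). edgeR called 0 of these genes (0%), with 1223 at an unadjusted p under 0.05. Without animal M it called 56, and Esr2 had an adjusted p of 0.131. DESeq2's Wald test called 52 genes (0.254%), Esr2 among them, with -5.87 and an adjusted p of 0.00948. Without a filter on low counts the edgeR adjusted p was 0.0403, in a fit that called 67 of 34878 genes (0.192%), and over all settings tried, DESeq2 included, the adjusted p was 0.00948 to 1.00. The call for Esr2 thus rested on the tool and the filter. Per animal, the log2 ratio of IP over pre-IP was -3.14 ± 0.55 (SD, n = 4) for Tau and 0.66 ± 1.19 (SD, n = 3) for EYFP, with no overlap. Tau ratios lay below all EYFP ratios in 5.60% of 20495 genes. With 0 counts in 3 of the 4 Tau IP libraries, the prior count bears on these ratios: their difference was -3.80 with a prior count of 2 and -5.39 with 0.5. A two-sided exact permutation test over the 35 splits gave p 0.0286, the smallest it can give, and 0.143 after adjustment over the 5 receptors. A single receptor at the smallest p could therefore not pass by itself.

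Several other measures also differed between the Tau IP and EYFP IP libraries. The summed markers of GABA, glycine and glutamate neurons were 315 to 559 CPM in Tau IP and 696 to 784 CPM in EYFP IP, with all 6 genes above the floor in every library. Those of the 6 oligodendrocyte genes were 3634 to 10300 CPM against 8822 to 13120 CPM, those of the 6 microglia genes 81.5 to 145 CPM against 151 to 179 CPM, and those of the 4 meningeal fibroblast genes 20.4 to 35 CPM against 39.1 to 62.1 CPM. Of these, the oligodendrocyte sums overlapped, and so did those of the 6 astrocyte genes, at 408 to 895 CPM against 843 to 1111 CPM. Not every gene followed its list: Lum of the fibroblast list had a log2 fold change of 0.21, and Aif1 of the microglia list -0.02. The list of parabrachial and Barrington neighbours of the locus coeruleus summed to 112 to 704 CPM against 54.6 to 77.9 CPM. That difference came from Calca (345 CPM ± 249, n = 4, against 36.4 CPM ± 9.96, n = 3; SD), while Crh and Foxp2 had log2 fold changes of -0.45 and -0.16. The IP held 0.1 to 0.8 ng of RNA per microlitre in Tau animals and 0.7 to 2.8 in EYFP animals. The part of these measures in the Esr2 result was not tested. Of 18769 genes above 3 counts in all 7 pre-IP libraries, 29 (0.155%) had at most 2 counts in each Tau IP library. In each EYFP IP library 9 (0.0480%) did, and Esr2 belonged to the former only. That count, with its limit of 2, was made after the values of Esr2 were seen. The genes were not matched to Esr2 in level, so these shares do not tell how rare its pattern is among genes of such low counts. Within the lower library-number range Esr2 had 0.544 CPM ± 0.167 in EYFP IP (SD, n = 2) and 0.0214 CPM ± 0.0302 in Tau IP (SD, n = 2), and within the higher range 0.906 CPM in the single EYFP IP library and 0 in both Tau IP libraries.

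The remaining receptors overlapped between Tau IP and EYFP IP. The log2 fold change was 0.30 for Esr1 (SE 0.35, edgeR adjusted p 0.762), -0.12 for Pgr (SE 0.21, adjusted p 0.839), 0.27 for Nr3c1 (SE 0.29, adjusted p 0.741) and -0.39 for Nr3c2 (SE 0.24, adjusted p 0.537). Mean levels of Nr3c2 were 16.9 CPM ± 4.0 in EYFP IP (SD, n = 3) and 12.1 CPM ± 2.62 in Tau IP (SD, n = 4), and the libraries overlapped between 12.4 and 14.2 CPM. For Pgr, each of the 4 Tau animals had a lower log2 ratio of IP over pre-IP than each EYFP animal, -0.40 to -0.07 against -0.05 to 0.04 (exact permutation p 0.0571, 0.143 adjusted), as 5.60% of genes did. The log2 ratio of Nr3c1 was 0.94 ± 0.29 (SD, n = 4) for Tau and 0.51 ± 0.12 (SD, n = 3) for EYFP (exact permutation p 0.0857, 0.143 adjusted). These ratios of Nr3c1 overlapped, since animal M had 0.58 and animal H 0.65.

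In pre-IP, Tau and EYFP animals were compared to ask whether tau changed the receptors in the brainstem as a whole. No receptor passed, as edgeR and DESeq2 called 0 of 19197 genes (0%), with 545 at an unadjusted p under 0.05 in edgeR. Esr1 was the only receptor whose groups did not overlap, and this by little: the lowest Tau value was 2.97 CPM and the highest EYFP value 2.96 CPM. The means were 3.62 CPM ± 0.725 (SD, n = 4) and 2.53 CPM ± 0.462 (SD, n = 3). Non-overlap with Tau higher was found for 1.33% of genes, and in either direction for 3.12%. The log2 fold change of Esr1 was 0.54 (SE 0.23, unadjusted p 0.0368, edgeR adjusted p 1). It was 0.39 without animal L, the animal with the highest pituitary list. Without EYFP animal I, whose pre-IP pituitary list was the lowest at 15.3 CPM, it was 0.41. Leaving out EYFP animal K or Tau animal M, whose lists were also high at 766 and 851 CPM, gave 0.59 and 0.58. Without B, C or H it was 0.62, 0.54 and 0.61. The part of the pituitary list in the difference was not tested. The other receptors had log2 fold changes of -0.12 (SE 0.44) for Esr2, 0.06 (SE 0.16) for Pgr, -0.18 (SE 0.22) for Nr3c1 and 0.00 (SE 0.14) for Nr3c2, all with an edgeR adjusted p of 1.

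**Figure D4:**
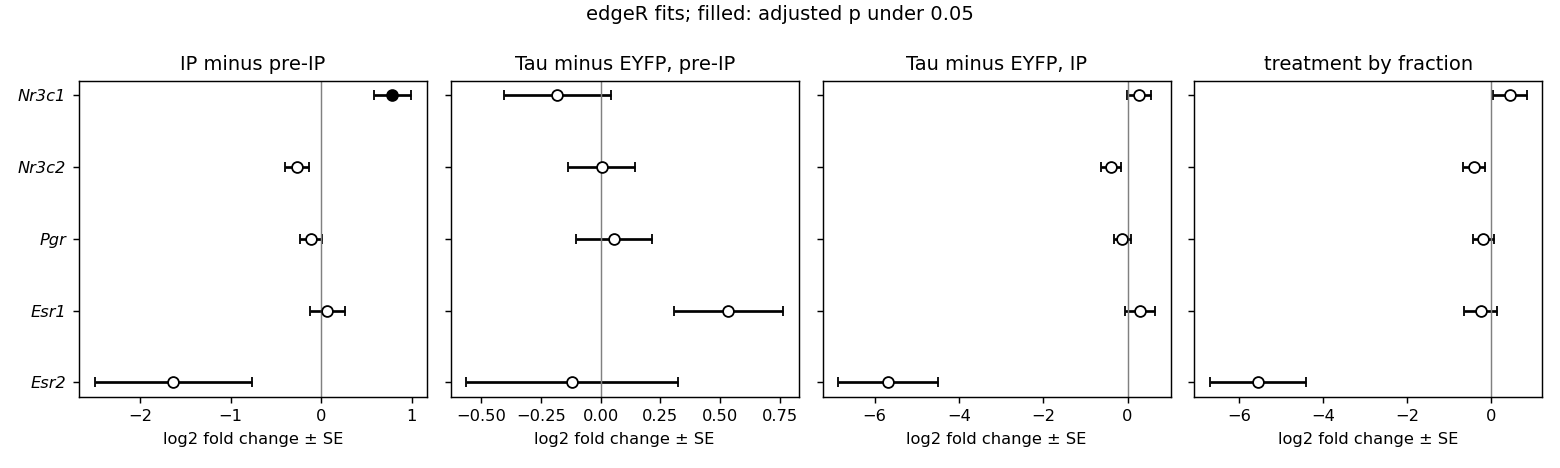
edgeR log2 fold changes with standard errors for the 5 receptors in the 4 comparisons, each on an axis of its own; filled points have an adjusted p under 0.05. Nr3c1 in IP against pre-IP, at 0.79, is the only filled point, and Esr2 has the largest values in the IP comparison (-5.68) and the interaction (-5.55).

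Other genes of steroid signalling were taken from lists by role. In IP against pre-IP, relatives of the receptors and membrane receptors gave 1 higher and 3 lower of 12 tested. Their median log2 fold change was -0.20 against -0.00 for all 18792 genes. Among all genes, 16.3% were called higher and 14.7% lower in this comparison, the background for this list and those that follow. No list was tested as a set. Pgrmc1, a membrane-bound progesterone receptor component, rose by 0.71 (SE 0.16, edgeR adjusted p 0.00326). Paqr8, a membrane progestin receptor, fell by 0.73 (SE 0.14, edgeR adjusted p 0.00138), and Paqr7, of the same family, and Esrra, an orphan receptor related to the oestrogen receptors, were the others that fell.

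The chaperones that hold the receptors ready for hormone gave 4 higher and 0 lower of 10, with a median of 0.30. Of all genes, 16.3% were called higher and 14.7% lower. The cytosolic HSP90 gene Hsp90aa1 rose most, by 2.18 (SE 0.19, edgeR adjusted p 1.36e-05), from 192 CPM ± 37.5 in EYFP pre-IP to 952 CPM ± 262 in EYFP IP (SD, n = 3 each) and from 209 CPM ± 69.2 in Tau pre-IP to 829 CPM ± 181 in Tau IP (SD, n = 4 each). Ppid, the cyclophilin of the receptor complex, rose by 0.80 (SE 0.17, edgeR adjusted p 0.00238), and Hsp90ab1 and the cochaperone Ptges3 were the other chaperones that rose. HSP90 serves many client proteins besides steroid receptors, and it is also a heat shock protein. Fkbp5, the cochaperone that lowers the hormone binding of the glucocorticoid receptor and is induced by it, was at -0.06 on the log2 scale (edgeR adjusted p 0.867).

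Coregulators gave 2 higher and 1 lower of 11, with a median of -0.16. The corepressor Ncor1 rose by 0.84 (SE 0.19, edgeR adjusted p 0.00332) and the coactivator Ncoa3 fell by 0.64 (SE 0.15, edgeR adjusted p 0.00417), while the related coactivator Ncoa1 was the other that rose. Of the 10 genes of steroid metabolism 6 could be tested, with 0 higher and 1 lower and a median of -0.24. H6pd, which makes the cofactor for Hsd11b1, fell by 0.71 (SE 0.18, edgeR adjusted p 0.00735). Hsd11b1, which regenerates active glucocorticoid, had 31.5 CPM ± 9.21 in EYFP pre-IP. Hsd11b2, which inactivates glucocorticoid and so protects the mineralocorticoid receptor, had 0 to 0.278 CPM per library in the pre-IP groups. These CPM are not per length, so the levels of these genes are not compared.

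Glucocorticoid-responsive genes gave 1 higher and 3 lower of 15, with a median of -0.27. The metallothionein gene Mt2 rose by 0.53 (SE 0.13, edgeR adjusted p 0.00605). Ddit4, an inhibitor of mTOR signalling, fell by 0.87 (SE 0.24, edgeR adjusted p 0.0125), and the phosphatase gene Dusp1 and Tsc22d3, which encodes the anti-inflammatory protein GILZ, were the others that fell. Of 8 oestrogen-responsive genes tested of 9 listed, Pgr among them, 0 were higher and 1 lower, with a median of -0.41. Rara, a retinoic acid receptor, fell by 0.68 (SE 0.14, edgeR adjusted p 0.00190).

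**Figure D5:**
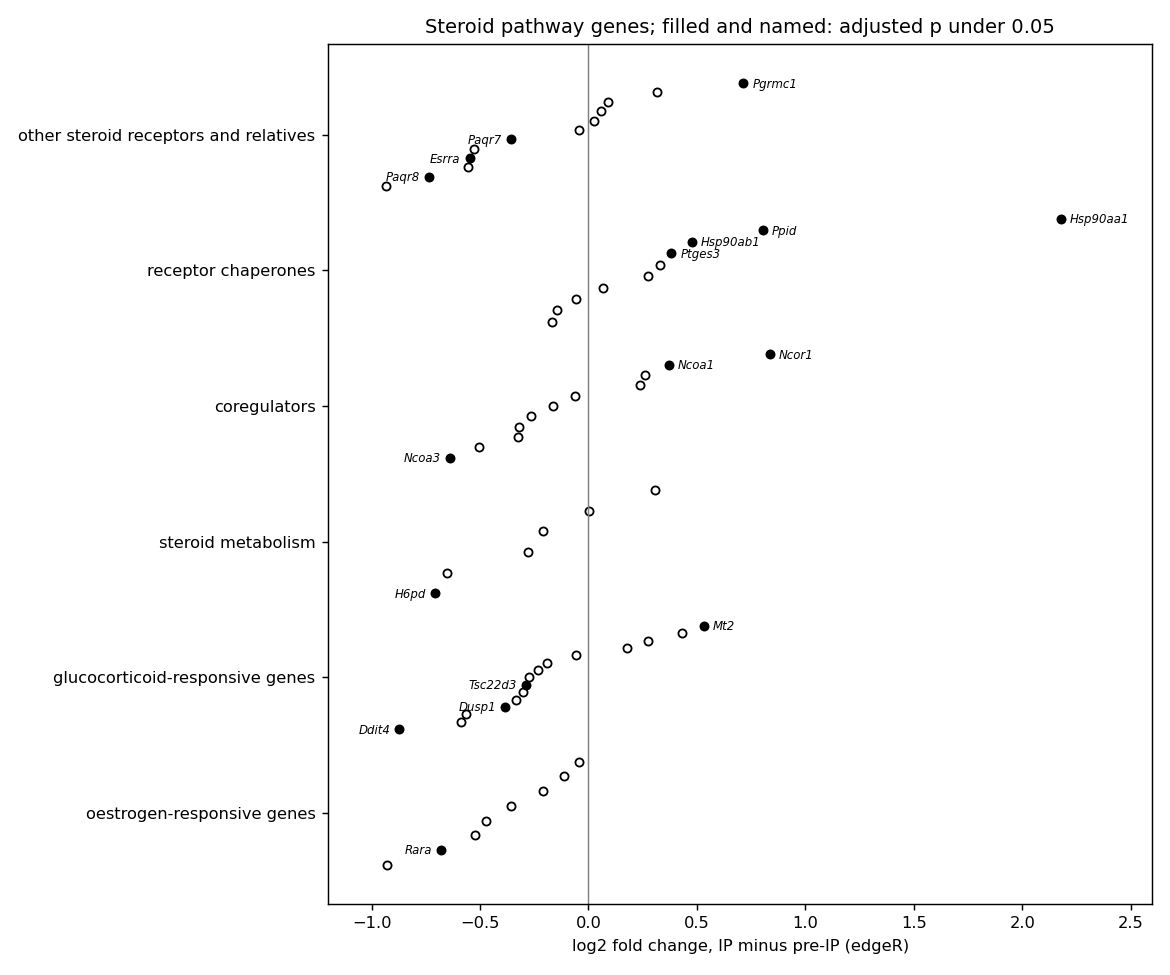
edgeR log2 fold change of IP minus pre-IP for the tested genes of 6 steroid signalling lists, one point per gene, ordered by value within its list; filled, named points have an adjusted p under 0.05. Hsp90aa1 lies farthest from 0, at 2.18, and the chaperones have 4 filled points to the right and 0 to the left. Of all genes tested, 16.3% were called higher and 14.7% lower.

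The palindromic glucocorticoid response element, to which glucocorticoid and mineralocorticoid receptors both bind, was searched as the half-sites GNACA and TGTNC with 3 bases between them, on both strands of promoter windows from RefSeq (GRCm38.p6, 250 bases before to 50 bases after the start). It was in 156 of 32851 windows (0.475%), in 2 of 24 windows of glucocorticoid-responsive genes (8.33%), and in 0 of 5 windows of the 4 receptors with an entry. The motif of the oestrogen receptors, GGTCA and TGACC with 3 bases between them, was in 23 of all windows (0.0700%) and in 0 of those of the receptors or the lists. The 2 matches are shown because they carry the element that the glucocorticoid receptor recognises. The match is in capitals, with 12 bases on either side, read on the plus strand. Mt1 encodes a metallothionein, and its match starts 94 bases before the start site (chr8:94178983-94179019). Sgk1 encodes a kinase induced by corticosteroids, and its match starts 188 bases before the start site (chr10:21993690-21993726).
Mt1: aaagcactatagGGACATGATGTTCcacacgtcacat
Sgk1: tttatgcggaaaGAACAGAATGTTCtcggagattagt
A match is a run of letters, not a measured binding site. Both genes were well expressed: Mt1 had 789 CPM ± 60.9 and Sgk1 89.7 CPM ± 12.3 in EYFP pre-IP (SD, n = 3). Neither passed in IP against pre-IP, with log2 fold changes in IP of 0.18 for Mt1 (edgeR adjusted p 0.312) and -0.34 for Sgk1 (edgeR adjusted p 0.114).

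Between Tau and EYFP, no gene of the 6 lists passed in IP, in pre-IP or in the interaction. The genes with the smallest p of each list in IP were Ddit4, with a log2 fold change of -1.0 (edgeR adjusted p 0.320), Smarca4, the ATPase of a chromatin remodelling complex, with -0.53 (0.379), Pgrmc1 with 0.55 (0.382), Ptges3 with 0.43 (0.398), H6pd with -0.55 (0.485) and Xbp1, a transcription factor of the unfolded protein response, with 0.24 (0.627). Ddit4 had 16.0 CPM ± 6.71 in EYFP IP (SD, n = 3) and 7.25 CPM ± 1.78 in Tau IP (SD, n = 4). In pre-IP they were Ep300, a histone acetyltransferase, with -0.41, Fkbp5 with -0.39, Gper1, a membrane oestrogen receptor, with 0.36, Klf9, a transcription factor induced by glucocorticoids, with -0.32, Cyp11a1, the first enzyme of steroid synthesis, with -0.21, and Ccnd1, a cyclin, with 0.20, all with an edgeR adjusted p of 1. In the interaction they were Hsd11b2 with -2.90, Fkbp5 with 0.70, Smarca4 with -0.56, Paqr9 with 0.48, Ccnd1 with -0.42 and Dusp1 with -0.41, with edgeR adjusted p from 0.820 to 0.839. Hsd11b2 rests on 0 to 16 counts per library.

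The genes whose pattern over the 14 libraries was most like that of each receptor were found by the root-mean-square difference of centred log2 CPM, among 20495 genes. For Nr3c1 these were Nmt2 (0.182) and Rabgap1l (0.185), against an SD of Nr3c1 itself of 0.567. For Nr3c2 they were Polr3e (0.117) and P2rx4 (0.120), and for Pgr Leng9 (0.104) and Dnajc4 (0.125). For Esr1 they were Mb (0.194) and H2-Q2 (0.203). For Esr2 they were Pik3c2g (0.685) and 1110002E22Rik (0.687), differences several times those of the other receptors, against an SD of Esr2 of 1.66. The libraries share animals and scaling, and the likeness is a description.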

How the data were processed

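The deposited count table holds whole-number counts per gene and library. Per the submitters' processing notes, FastQC, Trim Galore, STAR, featureCounts and the builds GRCm38 and mm10 were used; strand and multimapping settings are not given in the sources used here. SMART-Seq and Nextera XT kits turned polyadenylated RNA into libraries, per the labels' protocols. A deposited sheet lists, per library, a quality score of the RNA (RIN) and other data such as its concentration. Per the file headers these are the authors' values. The count header has 2 stray empty cells, so columns were read by position.

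Libraries were grouped by labels. The library of a fraction and its partner come from 1 animal by the letter in the titles; same-letter deviations from the group means correlated at 0.22 on average (0.15 to 0.36 over 7 animals). Each sample of a group is a separate animal.

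Of the identifiers, 3766 had no symbol in the deposited gene table and 3669 of these were named from GENCODE M21. CPM is 1000000 times the count over the library total. edgeR 4.0.16 in R 4.3.3 tested all genes kept by filterByExpr, with trimmed-mean-of-M-values scaling, the quasi-likelihood F test and Benjamini-Hochberg adjustment at 0.05; the SE is the log2 fold change over the square root of F. The Tau comparisons used the libraries of 1 fraction, the others all 14. The fits were tested on counts simulated with known changes. At a log2 size of 1 they recovered 14.3% of changed genes in Tau IP against EYFP IP and 11.3% in the interaction. They recovered 58.7% in Tau against EYFP pre-IP and 61.7% in IP against pre-IP. A gene that was not called is thus not shown to be unchanged. Other settings were DESeq2 1.42.0 (its size factors, and its Wald test), no low-count filter, leaving out each animal, sex label or library-number range as covariate, the animal as block, each treatment alone, and for ratios a prior count of 0.5 or unscaled totals.

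Named genes were the 5 receptors, the 2 genes most like each, and from each pathway list per comparison up to 2 genes with the smallest p past the threshold, or else 1; others, such as Hsd11b1, Fkbp5, Mt1 and Sgk1, were named for their role, after their values were seen, and counts of 5 or fewer were named in full. The members and lists were chosen with earlier results of these data known. Marker lists of the remaining cell types had these summed CPM over all libraries: serotonergic 18.4 to 124, cholinergic 20.1 to 83.8, cerebellar granule cells 37.7 to 127, astrocytes 408 to 1158, microglia 81.5 to 186, vascular cells 23.4 to 42.5, meningeal fibroblasts 20.4 to 62.1, choroid plexus 29.4 to 1821 and lymphocytes 148 to 1098. One gene of the pathway lists is not reported here by name.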

Additional observations from a re-analysis of the deposited data

Results flagged for a closer look

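Esr2 in the Tau IP library of animal C, at 0.0427 CPM, lay apart from the other 3 Tau IP libraries, all at 0. That value is 2 counts, under the floor of 3, so the separation is not beyond counting error. Of 15 groups of 4 values tested for a value far from the rest, 1 was found, and chance gives about 1 in 20.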

How the results depend on the processing

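Of 256 fitted alternative values with an adjusted p for single receptors, 240 kept their direction and their side of the threshold, 11 reversed sign, 1 lost its call and 4 gained one. A further 4, in Tau IP against EYFP IP, had no adjusted p from DESeq2 (all receptors but Nr3c1). Another 45 were permutation values, and none of them passed. Of the 5 receptors, the number called in IP against pre-IP was 1 (Nr3c1), where 31.0% of all genes were called, and stayed 1 without each animal. It was 2 (Nr3c1 and Esr2) with DESeq2's Wald test (35.3% of all genes called) and in the Tau animals alone (20.7%). In the EYFP animals alone, which are 3 against 3 libraries, it was 0 (6.38% of all genes called). In the interaction 0 were called (0% of all genes), but 1 (Esr2) with DESeq2's Wald test (0.254%) and without a low-count filter (0.192%). In the comparisons of Tau with EYFP, 0 of the receptors with an adjusted p were called under the settings tried. With the animal as replicate block, which pairs the fractions and called 32.6% of genes in IP against pre-IP, Nr3c1 in IP was 0.77 (edgeR adjusted p 0.000612) and the interaction of Esr2 -5.79 (edgeR adjusted p 0.531); the block changed no call. Leaving out 1 animal, Nr3c1 in IP ranged from 0.72 to 0.85. Among the sign reversals, leaving out 1 animal, Tau against EYFP in pre-IP ranged from -0.41 to 0.31 for Esr2 (the lowest and highest over the animals; 0.31 without H), from -0.02 to 0.15 for Pgr and from -0.04 to 0.06 for Nr3c2, and Esr1 in IP against pre-IP from -0.04 to 0.12. In the Tau animals alone Esr1 was -0.06, and in the EYFP animals alone Esr2 was 0.68. The causes were not tested. Depth limits Esr2, which had at most 55 counts in a library, and the smallest exact p of the 35 splits is 0.0286.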
